A study of Bos taurus with 8 samples.

Results

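MCTP1 and OLFM4 are 2 of the 21861 genes listed in the single-cell RNA-seq (scRNA-seq) tables of bovine peripheral blood mononuclear cells (PBMCs) treated with lipopolysaccharide (LPS). They were chosen by name, because in earlier results of these data both were among the genes with the largest ratio of the 8 h LPS library to the library without LPS. Their levels over LPS time are therefore given as a description, with no test. The rows are ENSBTAG00000054976 for MCTP1 and ENSBTAG00000022779 for OLFM4. At least 1 molecule of MCTP1 was read in 1070 of 28484 cells, and of OLFM4 in 377 cells.

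Blood of 4 female Holstein cattle, 2 years old, was mixed in 1 pool and divided into a no LPS part and 3 parts exposed to 2 µg/ml of LPS over 2, 4 or 8 h. PBMCs of each part gave 1 scRNA-seq library and 1 single-cell chromatin accessibility (scATAC-seq) library. There was no second library of any treatment, and the pool holds the animals' cells together, so treatment, library and handling cannot be told apart. An incubation time for the no LPS part is not given in the sources used here. All intervals below are 95% intervals that cover counting error only.

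LPS, a component of the outer membrane of gram-negative bacteria, is bound by CD14 and sensed through TLR4, and monocytes and neutrophils are known for strong responses to it. MCTP1 encodes a membrane protein with several C2 domains, which bind calcium, and a pair of transmembrane stretches, and it is best known from work on neurons. OLFM4 encodes olfactomedin 4, a secreted glycoprotein that neutrophils store in their specific granules and that is known to mark some neutrophils and not others. It is also known as a marker of stem cells of the intestine.

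Cells with 200 to 3000 genes, at least 200 unique molecular identifiers (UMIs, each standing for 1 captured RNA molecule) and under 20% mitochondrial UMIs were kept. This left 7821 cells without LPS and 9865, 7387 and 3411 at 2, 4 and 8 h, with 38503367, 47875879, 40160248 and 16657841 UMIs. The median cell had between 3997 and 4757 UMIs. Across the libraries 93 barcodes occurred more than once, and 11 cells with a UMI of either gene had such a barcode. The 8 h library stood apart in its cell number and in cluster 11, an unnamed cluster of low UMI count that took 767 of its 839 cells from that library. Levels are given as CPM, the UMIs of a gene scaled to a total of 1000000 UMIs over the cells summed.

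MCTP1 was higher in each LPS library than without LPS, and its level at 8 h did not differ detectably from that at 4 h. It had 186 UMIs without LPS and 360, 564 and 257 at 2, 4 and 8 h. The levels were 4.83 CPM (4.16 to 5.58), 7.52 (6.76 to 8.34), 14.0 (12.9 to 15.3) and 15.4 (13.6 to 17.4) in this order. The intervals of no LPS, 2 h and 4 h do not overlap, and those of 4 h and 8 h do. Against no LPS the ratio was 1.56 (1.30 to 1.87), 2.91 (2.46 to 3.45) and 3.19 (2.63 to 3.88) at 2, 4 and 8 h. The step from 2 h to 4 h was 1.87-fold (1.63 to 2.14), while that from 4 h to 8 h was 1.1-fold (0.944 to 1.28).

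OLFM4 also had its lowest level without LPS and similar levels at 4 h and 8 h. Its 105, 287, 345 and 149 UMIs gave 2.73 CPM (2.23 to 3.30) without LPS and 5.99 (5.32 to 6.73), 8.59 (7.71 to 9.55) and 8.94 (7.57 to 10.5) at 2, 4 and 8 h. The 3 LPS libraries all lay above the interval of the library without LPS. The ratio to no LPS was 2.20 (1.75 to 2.78), 3.15 (2.52 to 3.96) and 3.28 (2.54 to 4.25) at 2, 4 and 8 h. From 2 h to 4 h the ratio was 1.43 (1.22 to 1.68), and from 4 h to 8 h it was 1.04 (0.853 to 1.27). For both genes, then, most of the difference to no LPS was present at 4 h, and a later step was not detectable at this depth.

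**Figure D1:**
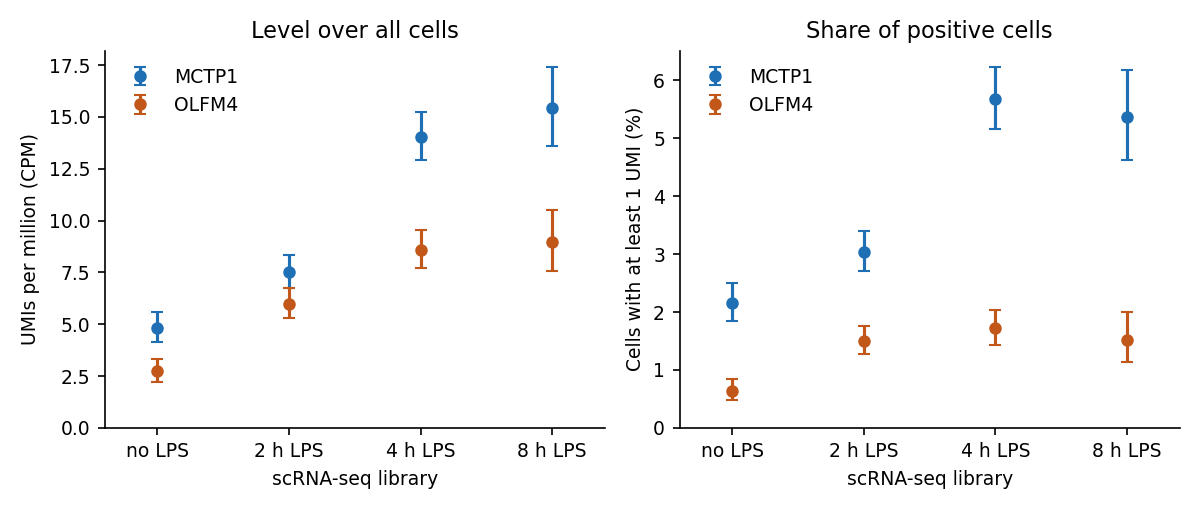
The left panel plots the level of MCTP1 and OLFM4 in CPM over all cells and the right panel the percent of cells with at least 1 UMI, by scRNA-seq library, with 95% Poisson or exact binomial counting intervals. For MCTP1 the CPM goes from 4.83 without LPS to 15.4 at 8 h, and for OLFM4 from 2.73 to 8.94, with the 4 h and 8 h points close together for both.

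Among 8652 genes with at least 200 UMIs in the 8 h and no LPS libraries together, 43 (0.497%) were at least 2-fold higher at 8 h. All ranks and fold thresholds across genes use log2((CPM + 1)/(CPM + 1)), which understates the change of low genes. On this scale MCTP1 had rank 3, with 1.49, and OLFM4 rank 4, with 1.42. Directly above them was CXCL10, an interferon-induced chemokine, with 1.94, and the first gene was CCL1, another chemokine, with 3.90. PYCR1, an enzyme of proline synthesis, stood directly below them with 1.40. CCL1 had 22.4 CPM at 8 h, but 228 of its 373 UMIs there were in 1 cell. At 4 h the ranks of MCTP1 and OLFM4 were 64 and 66 of 9125 genes, of which 1.56% were at least 2-fold higher. At 2 h they were 390 and 130 of 9255 genes, of which 1.13% were at least 2-fold higher. The log2 ratio of 8 h to 4 h placed them 3219th and 4331st of 8547 genes.

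The high rank at 8 h goes with fewer genes at least 2-fold higher (142 at 4 h, 43 at 8 h), while the ratios of both genes stayed near their 4 h values. CXCL10 had 15.2 CPM without LPS and 45.5, 151 and 61.2 at 2, 4 and 8 h. PYCR1 had 4.75, 8.06, 19.0 and 14.2 CPM. MCTP1 and OLFM4 differ from these neighbours in that their 8 h level was not below that at 4 h.

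The share of cells with an MCTP1 UMI was 2.15% (168 cells) without LPS and 3.04% (300 cells), 5.67% (419 cells) and 5.36% (183 cells) at 2, 4 and 8 h. Positive cells mostly held a single UMI, and this was the case for 90.5% of them without LPS and 84.7%, 75.4% and 71.6% at 2, 4 and 8 h. The mean UMI count of a positive cell was 1.11, 1.2, 1.35 and 1.40, and no cell held more than 6. The higher CPM thus came with more positive cells and with slightly more UMIs in each. After each cell was thinned to 1000 UMIs, to compare cells of equal depth, the shares were 0.438%, 0.975%, 1.60% and 1.52%, in the same order but lower throughout. The mean UMI count of a positive cell was then 1.06, 1.05, 1.09 and 1.09, so little of its difference was seen at that depth.

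OLFM4 was read in few cells, some with many UMIs. Positive cells were 50 without LPS and 148, 127 and 52 at 2, 4 and 8 h, or 0.639%, 1.5%, 1.72% and 1.52% of the cells. Their mean UMI count was 2.10, 1.94, 2.72 and 2.87, and cells with 4 or more UMIs numbered 8, 20, 31 and 8. The highest cell of each library held 12, 11, 12 and 23 UMIs. At 8 h the 3 highest cells held 54 of the 149 UMIs. Without the 3 highest cells of each library the level was 2.03, 5.45, 7.77 and 5.71 CPM, so that 8 h lay below 4 h, and the log2 ratio of 8 h to no LPS was 1.15 in place of 1.42. Thinned to 1000 UMIs per cell, the shares of positive cells were 0.328%, 0.721%, 0.887% and 1.05%.

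**Figure D2:**
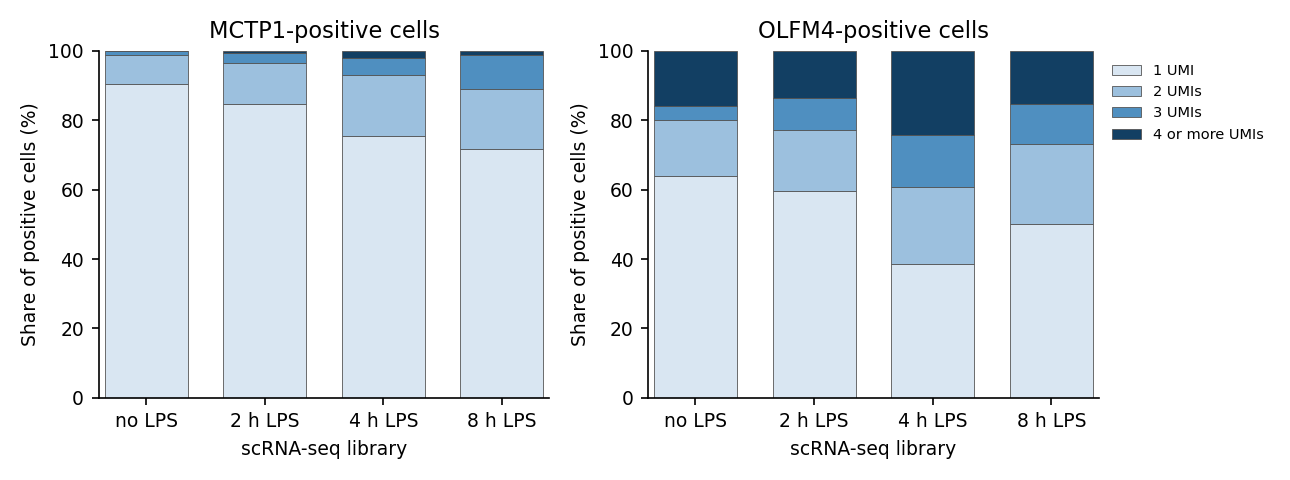
Stacked bars show, for each scRNA-seq library, the percent of MCTP1-positive cells (left) and OLFM4-positive cells (right) with 1, 2, 3 or at least 4 UMIs of the gene. Cells with 1 UMI make up 90.5% of the MCTP1-positive cells without LPS and 71.6% at 8 h, and 64% and 50% of the OLFM4-positive cells.

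The cells that carried MCTP1 were mainly T cells by their other transcripts. Of the 1070 positive cells of all libraries, 87.8% had a UMI of CD3E, a chain of the T cell receptor complex, against 54.5% of all cells. LEF1, a transcription factor of naive T cells, was read in 38.1% of them against 18.5% of all cells. CD4, the coreceptor of helper T cells, was read in 26.8% against 17.1%. CD8B, the beta chain of the coreceptor of cytotoxic T cells, was less common in MCTP1-positive cells (4.11%) than in all cells (7.42%). The B cell gene MS4A1 was read in 6.45% against 28.6%, CD14 in 4.49% against 9.11%, and CSF3R, the receptor of the neutrophil growth factor G-CSF, in 0.841% against 2.23%. None of these 6 status genes, which leave out CD3E, was read in 40.9% of the MCTP1-positive cells, against 32.1% of all cells.

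Within the cells that had a UMI of CD3E, the MCTP1 level differed by CD4, LEF1 and CD8B status. Cells with CD4 and LEF1 had 9.38 CPM without LPS and 16.3, 34.7 and 27.1 at 2, 4 and 8 h. Cells with LEF1 but no CD4 UMI had 14.8, 15.7, 31.3 and 41.2 CPM. Cells with CD4 but no LEF1 UMI had 4.99, 8.92, 17.6 and 18 CPM, and those with neither had 8.44, 14.1, 24.6 and 24.9. In each of these 4 groups the 4 h and 8 h levels were above those at 2 h and without LPS. CD8B-positive cells stood apart, with 5.12, 3.47, 4.37 and 5.96 CPM. A missing UMI does not show that the gene is silent in a cell, so these groups are mixed.

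The OLFM4-positive cells had a different set of transcripts. CSF3R was read in 51.7% of them, against 2.23% of all cells, and CXCR1, a receptor of the neutrophil-attracting chemokine CXCL8, in 51.5% against 2.03%. By library the CSF3R share of OLFM4-positive cells was 44% without LPS and 50%, 60.6% and 42.3% at 2, 4 and 8 h, while that of all cells lay between 1.66% and 2.76%. CD14 was read in 32.1% of the OLFM4-positive cells against 9.11% of all cells. MS4A1 was read in 17.8% against 28.6%, CD3E in 15.1% against 54.5%, CD4 in 5.04%, LEF1 in 4.24% and CD8B in 3.18%.

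All CSF3R-positive cells together had 98.4 CPM of OLFM4 without LPS and 158, 244 and 323 at 2, 4 and 8 h. Their level depended on the CD14 status. Cells with CSF3R and no CD14 UMI had 293 CPM without LPS and 247, 274 and 369 at 2, 4 and 8 h, and 27.7%, 30.5%, 31.7% and 31.1% of them were positive. Neither series shows the pattern of the level over all cells. Cells with both CSF3R and CD14 had 34.2, 101, 223 and 277 CPM, and 6.15%, 35.2%, 46.9% and 30.8% of them were positive. These are 65, 88, 81 and 26 cells. The CD14 level over all cells, whose part in these values was not tested, was 501 CPM without LPS and 145, 82.6 and 111 at 2, 4 and 8 h. Cells with CD14 and no CSF3R UMI had 1.16, 4.14, 12.3 and 8.38 CPM, and cells with neither 1.02, 2.57, 2.23 and 2.61.

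**Figure D3:**
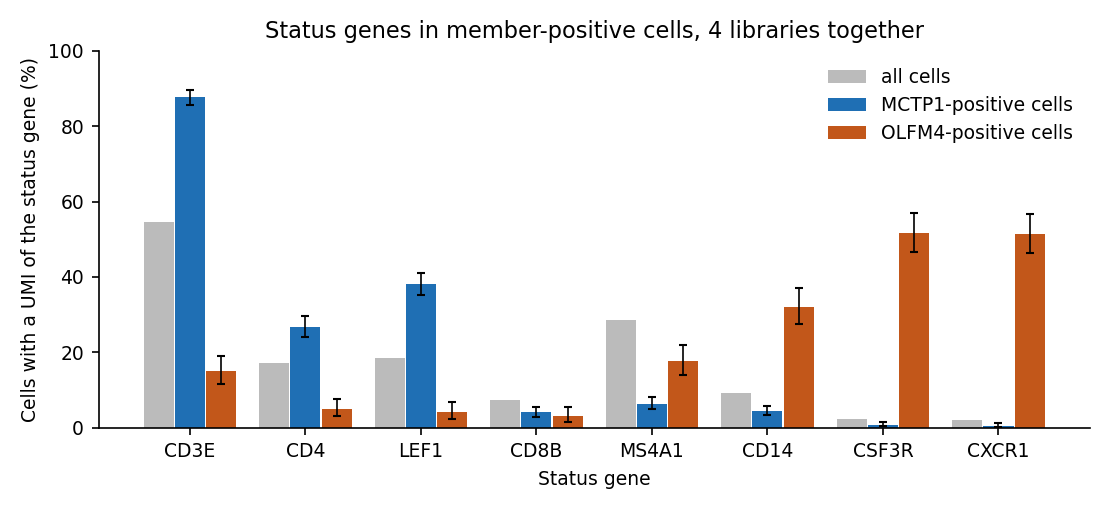
Bars show the percent of all cells, MCTP1-positive cells and OLFM4-positive cells, over the 4 scRNA-seq libraries together, that had a UMI of each status gene, with exact binomial 95% intervals for the positive cells. CD3E and LEF1 are above the all-cell share in MCTP1-positive cells (87.8% and 38.1%), and CSF3R, CXCR1 and CD14 in OLFM4-positive cells (51.7%, 51.5% and 32.1%).

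To place the 2 genes in cell types, the cells were clustered without MCTP1 and OLFM4 and clusters were called "-like" by their markers. T-like cells, 40.05% of the cells, held 65.3% of the MCTP1 UMIs, and their level was 8.93 CPM without LPS and 12.5, 25.1 and 26.4 at 2, 4 and 8 h. A further 22.8% of the UMIs were in γδ T-like cells, marked by WC1 and CD163L1, of the WC1 family of scavenger receptors known from γδ T cells of cattle, with GATA3, SOX4 and RHEX. Of the 34 MCTP1-positive B-like cells 22 were in cluster 19, and 0.179% of the other B-like cells had an MCTP1 UMI, at a median of 4367.5 UMIs per cell. Cluster 19 was left out for having the highest share, so the remainder is low by choice and does not measure free RNA. In NK-like and granulocyte-like cells 0.695% and 0.824% were positive. The T-like share of positive cells over all libraries was 5.86% at a median of 4367 UMIs.

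MCTP1 was concentrated in cluster 0, a T-like cluster with CD4, LEF1, CCR7 and ICOS among its detected markers, of which LEF1 and CCR7 are known from naive and lymph node homing T cells. This cluster had 11.0% of the cells and 49.5% of the MCTP1 UMIs. Its level was 24.1 CPM (18.8 to 30.5) without LPS and 37.0 (31.6 to 43.1), 77.5 (69.1 to 86.7) and 82.0 (68.8 to 97.0) at 2, 4 and 8 h, with 7.76%, 10.8%, 23.6% and 26.6% of its cells positive. The ratio to no LPS was 1.54 (1.15 to 2.07), 3.21 (2.47 to 4.24) and 3.4 (2.53 to 4.61), much as over all cells. The cluster took 9.40% of the cells without LPS and 12%, 12.3% and 9.38% at 2, 4 and 8 h, so the higher level at 8 h was not matched by a larger share of these cells. Thinned to 1000 UMIs, 1.86%, 3.70%, 7.49% and 5.35% of its cells were positive.

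In γδ T-like cells (2791 cells) MCTP1 was 15.8, 22.6, 29.8 and 34.5 CPM, in the order no LPS, 2 h, 4 h and 8 h, and 6.17%, 8.70%, 11.4% and 15.3% of the cells were positive. The ratio to no LPS was 1.43 (1.00 to 2.06), 1.88 (1.34 to 2.69) and 2.18 (1.45 to 3.29) at 2, 4 and 8 h. In contrast, cluster 1, a T-like cluster of 2963 cells with CD8A and CD8B, had 5.57, 3.92, 5.58 and 5.03 CPM. Its ratio to no LPS was 1.00 (0.509 to 2.01) at 4 h and 0.904 (0.355 to 2.14) at 8 h. A difference in ratio between these clusters was not tested, since each treatment had 1 library.

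The other T-like clusters were lower in MCTP1 than cluster 0. Cluster 2, with CD4 and the activation and checkpoint genes CTLA4, PDCD1 and TNFRSF4, had 4.52, 5.50, 9.72 and 9.65 CPM, with a ratio of 8 h to no LPS of 2.13 (0.947 to 4.87). Cluster 5, with CD4 and CCR4, had 1.73, 1.73, 3.60 and 8.61 CPM, and its 8 h ratio of 4.99 (1.55 to 18.6) rests on 5 and 10 UMIs. Among the other classes MCTP1 was low, with 0.687, 0.543, 2.50 and 1.60 CPM in natural killer (NK)-like cells and 0.935, 1.77, 0.564 and 2.51 in monocyte-like cells. Within B-like cells the EBF1-marked cluster 19 had 5.54% positive cells, with 5.08, 7.01, 12.6 and 0 CPM. Cluster 20, unnamed because T cell markers stood beside HBB and TUBB1 of red cells and platelets, had 16.9, 21.3, 73.9 and 33.7 CPM. In cluster 24, an unnamed cluster of 186 cells led by GATA2 and FCER1A among others, 4.30% of the cells were positive, at 19.6 CPM over the libraries from 9 UMIs. Cluster 29, with T cell markers but unnamed for its low UMI count, had 8 UMIs in its 92 cells, or 97.2 CPM.

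**Figure D4:**
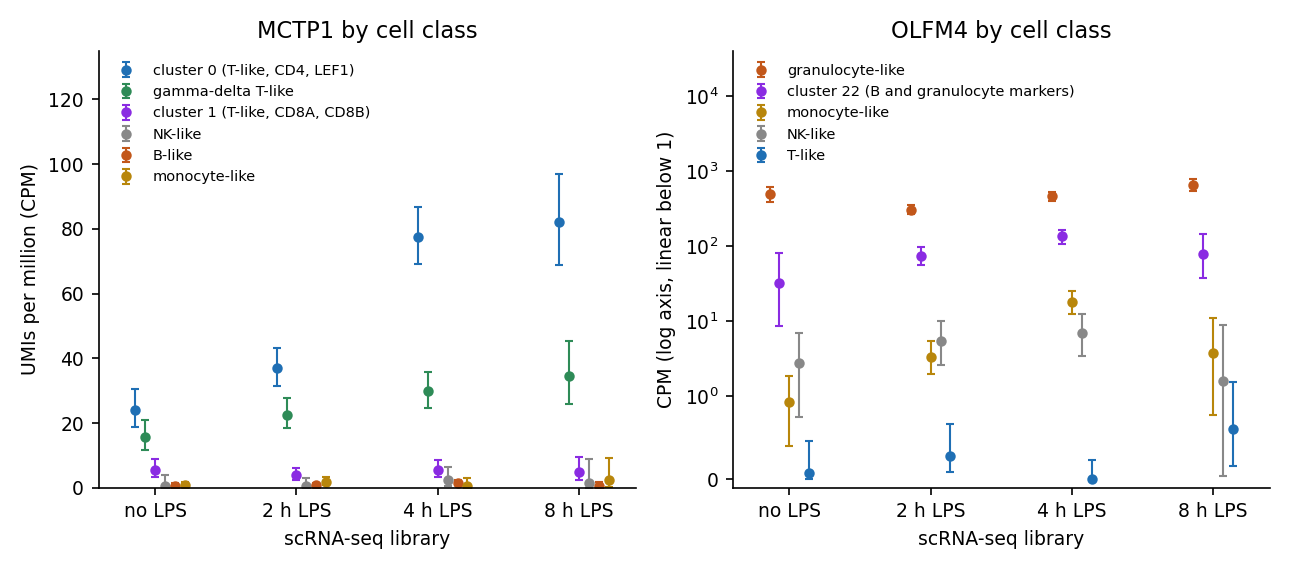
Points show MCTP1 (left, linear axis) and OLFM4 (right, log axis that is linear below 1) in CPM by scRNA-seq library for named classes and clusters, with 95% Poisson counting intervals. MCTP1 in cluster 0 goes from 24.1 to 82.0 CPM while cluster 1 stays between 3.92 and 5.58, and OLFM4 in granulocyte-like cells lies between 306 and 649 CPM in every library.

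OLFM4 was carried by granulocyte-like cells. This class is 1 cluster of 850 cells (132, 394, 234 and 90 in the order no LPS, 2 h, 4 h and 8 h) with CSF3R, CXCR1, CXCR2 and the calgranulins S100A8, S100A9 and S100A12 among its detected markers, and it held 67.5% of the OLFM4 UMIs. Over the libraries 27.3% of its cells had an OLFM4 UMI at a median of 1252.5 UMIs per cell, against 0.0877% of T-like cells at a median of 4367. Its cells had 0.300 of the median UMI count of their own libraries. The summed level of its 13 granulocyte markers was 68560, 8849, 4472 and 32089 CPM, so the cluster itself was not alike across libraries. Its 14 monocyte markers summed to 2273, 1240, 1853 and 1626 CPM. Of these, CD14, CD68 and TLR4 were among its detected markers. CD163, FCGR1A and MRC1 were at 0 in every library and CSF1R at 0 in the 3 LPS libraries. The part of these differences in the OLFM4 values was not tested.

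Within granulocyte-like cells OLFM4 was not higher at 2 h or 4 h than without LPS. The level was 491 CPM (390 to 610) without LPS and 306 (264 to 353), 458 (398 to 525) and 649 (540 to 775) at 2, 4 and 8 h. The ratio to no LPS was 0.623 (0.478 to 0.819), 0.933 (0.718 to 1.22) and 1.32 (0.991 to 1.77) at 2, 4 and 8 h, whereas over all cells it was 2.20, 3.15 and 3.28. The 8 h level was 1.42-fold (1.12 to 1.78) that at 4 h, but without the 3 highest cells of each library the levels were 354, 276, 421 and 421 CPM. Positive cells made up 25.8%, 23.4%, 31.2% and 36.7% of the class. Thinned to 1000 UMIs, they made up 29.2%, 18.4%, 24.5% and 35.1%. By contrast, OLFM4 in all CSF3R-positive cells was 98.4 CPM without LPS and 158, 244 and 323 at 2, 4 and 8 h.

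The share of granulocyte-like cells differed more between libraries than the level within them. It was 1.69% without LPS and 3.99%, 3.17% and 2.64% at 2, 4 and 8 h. When every cluster was given the share of UMIs it had without LPS, the log2 ratio of OLFM4 over all cells fell to −0.25, 0.58 and 0.45 at 2, 4 and 8 h, from 0.91, 1.36 and 1.42. The same step left MCTP1 at 1.08 at 4 h, from 1.37. Most of the OLFM4 ratio over all cells was therefore lost when the UMI shares of the clusters were held fixed. A UMI share depends on the number of cells in a cluster and on the UMIs in each, and this step does not separate them. With 1 library per treatment, a share of granulocyte-like cells that goes with LPS time and one that goes with the preparation cannot be told apart.

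**Figure D5:**
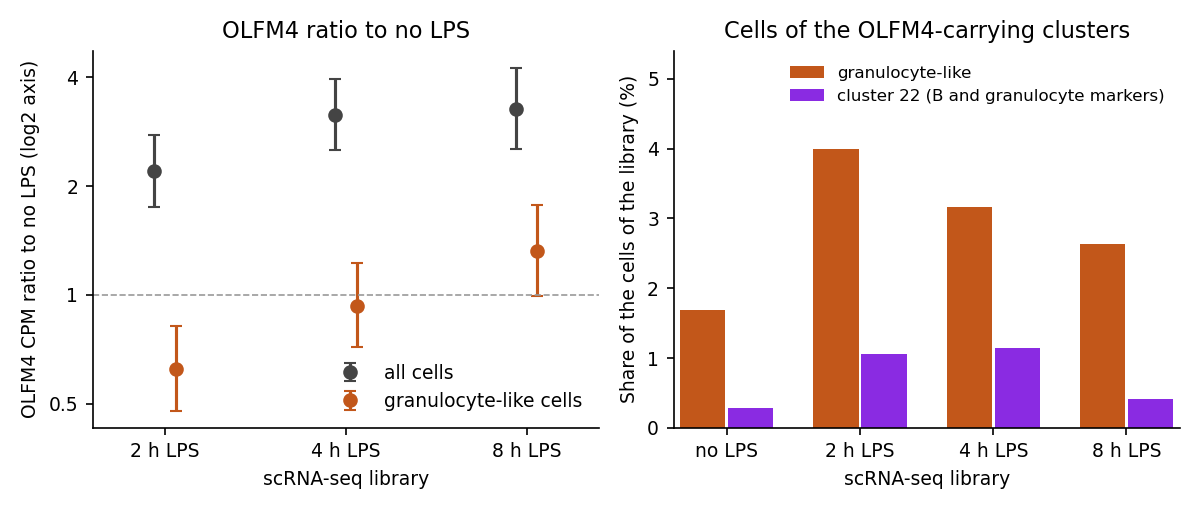
The left panel plots the ratio of OLFM4 CPM to no LPS over all cells and within granulocyte-like cells (log2 axis, 95% counting intervals), and the right panel the percent of the cells of each library in the granulocyte-like cluster and in cluster 22. At 4 h the ratio is 3.15 over all cells and 0.933 within granulocyte-like cells, while these cells are 1.69% of the library without LPS and 3.17% at 4 h.

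A second source of OLFM4 was cluster 22, which had markers of both B cells and granulocytes and was left unnamed. No doublet caller was run. The cells of this cluster had a median of 6726.5 UMIs, and the part of pairs of cells under 1 barcode in it was not tested. Its 224 cells held 17.5% of the OLFM4 UMIs and made up 0.281% of the cells without LPS and 1.05%, 1.14% and 0.410% at 2, 4 and 8 h. OLFM4 was 31.7, 74.2, 134 and 78.1 CPM in it, with 13.6%, 22.1%, 33.3% and 28.6% of its cells positive. Monocyte-like cells had 0.935 CPM (0.404 to 1.84) without LPS and 3.34 (1.95 to 5.35), 18.1 (12.4 to 25.5) and 3.76 (0.776 to 11.0) at 2, 4 and 8 h, from 8, 17, 32 and 3 UMIs. Different clusters made up this class, since cluster 9 had 841 of its 899 cells from the library without LPS and cluster 16 had 327 and 105 of its 471 from 2 h and 4 h. NK-like cells had 2.75, 5.43, 6.87 and 1.60 CPM. In T-like and B-like cells 10 and 8 OLFM4 UMIs were read in all, and none was read in the 3147 cells of cluster 0.

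The 2 genes seldom met in 1 cell. Both were read in 7 cells, where the shares of positive cells in each library multiplied, and summed over the libraries, give 15.6. In granulocyte-like cells it was 2 cells against 2.11, and in T-like cells 0 against 0.637. In unnamed clusters it was 4 against 1.99, and in γδ T-like cells 1 against 0.616. The expected number over all cells takes no account of the classes, which differ in the gene they carry.

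MCTP2, the other member of the MCTP family, was also lowest without LPS, with 0.909, 1.42, 1.37 and 2.16 CPM from 35, 68, 55 and 36 UMIs. Its ratio of 8 h to no LPS was 2.38 (1.45 to 3.90), and that of 4 h was 1.51 (0.969 to 2.37). In a list of 40 C2-domain membrane proteins, 17 had at least 20 UMIs in the 8 h and no LPS libraries together. On the scale with a pseudocount MCTP1 was the only 1 at least 2-fold higher at 8 h. The share over all 11778 such genes was 0.492%, but MCTP1 was chosen for its ratio and cannot be set against it. The pseudocount pulls MCTP2 below 2-fold. SYT4, a synaptotagmin, was lower (0.720 against 2.75 CPM), and the median log2 ratio of the list was 0.07 against 0.10 over all genes. Of the genes with an olfactomedin domain, OLFM1, OLFM3 and OLFML1 had no UMI and OLFM2 had 1, while OLFML3 had 0.390, 0.501, 0.324 and 0.540 CPM. OLFM4, chosen for its ratio like MCTP1, was the only 1 of the 3 measured members of that list past 2-fold.

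Neutrophil granule genes, to which OLFM4 itself belongs, held more lower than higher genes over all cells. Of 15 measured members of 32, OLFM4 was higher at 8 h and 7 were lower, where 2.92% of all genes were at least 2-fold lower, and the list's median log2 ratio was −0.41. The gelatinase MMP9 had 1.98 CPM at 8 h against 17.6 without LPS, ITGAM, the integrin chain of Mac-1, 2.76 against 21.1, and lysozyme (LYZ) 16.1 against 90.0. CHI3L1, CD177 and CYBB were also among the lower genes, with log2 ratios of −2.04, −1.33 and −1.14. Monocytes also express several of these genes, among them LYZ, CYBB and ITGAM, and monocyte-like cluster 9, with MMP9 among its leading genes, was 10.8% of the cells without LPS and 1.06% at 8 h. Its part in these values was not tested.

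The calcium entry and store genes, chosen because C2 domains bind calcium, gave no gene past 2-fold higher and 2 lower of 43 measured. Over all 11778 measured genes 0.492% were at least 2-fold higher and 2.92% lower, with a median log2 ratio of 0.10. These shares stand beside each list of this paragraph. Among the lower calcium genes was ATP2B4, a plasma membrane calcium pump, with 4.08 against 10.5 CPM. Of 37 measured lymphocyte activation genes, 5 were at least 2-fold higher and 1 lower, with a median of 0.38. They include CD69, an early activation receptor (64.2 against 23.9 CPM), IL22 (7.98 against 1.01), TNFRSF4 (37.1 against 17.1) and XCL1 (8.94 against 3.90), beside CCL1, and the lower gene was GZMB (1.38 against 4.65). Of 25 NF-κB target genes none was past 2-fold higher at 8 h, and SOD2 was lower (803 against 1779 CPM).

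Within T-like cells, where 0.561% of 9805 genes were at least 2-fold higher at 8 h, MCTP1 had a log2 ratio of 1.47 (26.4 against 8.93 CPM). Among the listed genes CCL4, a chemokine, had 1.93, IRF4, a transcription factor of activated lymphocytes, 1.23, and CCL3 1.15. CCL4 rests on 1 cell with 672 of its 1031 UMIs at 8 h. CXCL8 and PTX3 had 1.30 and 1.22. IL22 was lower with −1.27, where 0.163% of the genes were at least 2-fold lower, but it rests on 2 UMIs at 8 h and 26 without LPS. The 13 granulocyte markers summed to 97.7 CPM in T-like cells without LPS and to 156 CPM at 8 h, while PTX3 and CCL3 were at 17024 and 12331 CPM in granulocyte-like cells at 8 h. The part of free RNA in the T-like values of these chemokines and of PTX3 was not tested.

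In granulocyte-like cells 8.19% of 1478 genes were at least 2-fold higher at 8 h and 26% lower, so that the OLFM4 log2 ratio there lay inside a wide spread. Among the granule genes of these cells HP, ITGAM, LTF and MMP9 were lower, with log2 ratios of −3.39, −2.71, −2.39 and −1.19. PTX3 and LCN2 were higher, with 1.96 and 1.89, and 237 of the 238 LCN2 UMIs at 8 h were in 1 cell. No LPS had 132 cells in this class and 8 h had 90.

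The genes whose levels most resembled MCTP1 were found over 24 sums of a named class in a library, among 10007 genes. They were PAK6, a p21-activated kinase (Pearson r 0.909), ENSBTAG00000051082 (0.897), ENSBTAG00000050573 (0.896), JAKMIP3 (0.885) and CCR4, a chemokine receptor of T cells (0.884). For OLFM4 they were VMP1, an autophagy protein (0.963), the laminin chain LAMB3 (0.963), CXCR2, a receptor of neutrophil-attracting chemokines (0.963), GADD45G, a stress response gene (0.962), and MKNK1, a kinase that acts on a translation factor (0.961). The sums of a library share its depth and handling, and classes differ far more than libraries. These values therefore describe mainly in which classes the genes are read, not in which clusters or cells of a class. CCR4 was a leading gene of T-like cluster 5, where 1.40% of the cells had an MCTP1 UMI, against 15.4% in cluster 0.

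T-like cells with and without MCTP1 at 8 h (117 and 1070 cells) had a median of 6073 and 5390 UMIs. Genes were ranked if they had at least 20 UMIs in the positive cells, a limit that favours genes high in that group. The order is therefore a description only, and NIBAN1, GLO1 and DYRK2 had 21 UMIs each in the positive cells. The largest log2 ratio between cells with and without MCTP1 was that of CBR3, a carbonyl reductase, with 89.4 against 29.2 CPM, or 1.58, read in 34 and 133 cells. NIBAN1 (1.47), the sulfotransferase CHST2 (1.29), the kinase CAMKK2 (1.29), the glyoxalase GLO1 (1.23), the kinase PDPK1 (1.2), LAPTM4B (1.18), the kinase DYRK2 (1.14), GSAP (1.12) and PPP1R12B (1.08) came next. PPP1R12B was also among the 10 leading genes of cluster 0, as were MCTP1 itself and LEF1. The part of cluster 0 in these ratios was not tested.

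For OLFM4 the same comparison in granulocyte-like cells (33 and 57 cells at 8 h) was led by genes whose UMIs came from a few cells. Of 2085 S100A9 UMIs in OLFM4-positive cells 1213 were in 1 cell, of 2122 S100A12 UMIs 1582, and of 1517 S100A8 UMIs 874. Of 382 DEFB10 UMIs 342 were in 1 cell, and the 28 RRAD UMIs came from 2 cells. LCN2, DEFB4A, FABP5, ENSBTAG00000053991 and CCL20 made up the rest of the 10, and no gene is singled out from them.

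In the RefSeq annotation of a later assembly (ARS-UCD2.0), MCTP1 overlaps SLF1, a gene of DNA repair. SLF1 had 18.9 CPM without LPS and 19.7, 20.6 and 20.8 at 2, 4 and 8 h, without the difference seen in MCTP1. Whether reads were counted by strand is not given in the sources used here, so reads of the overlap could be assigned to either gene. FAM172A, next in order, had 82.9 CPM without LPS and 103 at 8 h. Of the genes beside OLFM4, PCDH8 had 0.727, 0.689, 0.822 and 2.22 CPM and DIAPH3 1.87 and 2.22 without LPS and at 8 h.

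In scATAC-seq the deposited counts of a gene measure fragments of open chromatin assigned to it. The library without LPS had a total of 975012 counts and a median of 213 counts per nucleus, against 30250143, 26837579 and 11957904 counts and median values of 5171, 5205 and 2250 at 2, 4 and 8 h. MCTP1 had 23, 1214, 1140 and 388 counts, or 23.6 CPM (12 to 41.7), 40.1 (37.0 to 43.5), 42.5 (39.1 to 46.1) and 32.4 (28.0 to 37.3). The interval without LPS overlaps those of the LPS libraries. The MCTP1 RNA level was higher at 8 h than at 2 h, while its accessibility at 8 h was not above that at 2 h. Among nuclei assigned by T cell genes MCTP1 had 57.9, 59.9 and 41.4 CPM at 2 h, 4 h and 8 h, above the 12.8, 22.1 and 12.8 CPM of nuclei assigned by B cell genes. Nuclei assigned by myeloid genes had 28.0, 29.6 and 75.4 CPM, from 6, 6 and 8 counts. Their 8 h level, with an interval of 20.5 to 193, was not below that of the T cell nuclei.

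OLFM4 had 14 counts without LPS and 148, 87 and 48 at 2, 4 and 8 h in scATAC-seq, or 14.4, 4.89, 3.24 and 4.01 CPM. It was counted in 0.288%, 1.99%, 1.73% and 1.14% of the nuclei. Among nuclei assigned by myeloid genes (69, 53 and 40 at 2 h, 4 h and 8 h) it had 2, 0 and 0 counts, so its accessibility in the cells that carried the RNA was not measurable at this depth.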

How the data were processed

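PBMCs were measured by scRNA-seq and scATAC-seq, with 1 library per treatment and assay. The authors deposited raw counts per gene and barcode, UMI counts for RNA, made with Cell Ranger on ARS-UCD1.2 (bosTau9). The rule that assigned scATAC-seq counts to genes is not given in the sources used here. Of their values above 0, 88.7% to 93.8% were even, so their intervals were taken on pairs of counts.

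Cells were filtered by the limits in the study's methods, with its UMI limit read as a minimum, which kept more cells than the study states. They were scaled to 10000 UMIs, reduced to 2000 variable genes (without the 2 genes and the listed genes) and 30 principal components, and clustered with 15 neighbours by the Leiden method (leidenalg 0.10.2, resolution 1). Naming a cluster required 3 or more detected markers. CPM have exact Poisson intervals, shares exact binomial (Clopper-Pearson) and ratios exact conditional intervals (scipy 1.17.1). Nuclei were assigned to a lineage with at least 4 marker counts, 75% of them of it. The size factors of edgeR 4.0.16 (TMM) and DESeq2 1.42.0 were tried only as other scalings. Steps were tested on simulated data. No p-value was computed.

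The genes, markers and lists were chosen with earlier results of these data known. The genes named are MCTP1, OLFM4, their neighbours in rank at 8 h, CCL1, CXCL10, PYCR1, status and marker genes, the 5 most alike, the 10 leading in positive cells, and from each list at most 6 past 2-fold each way. The neighbours in the annotation and the family members were named after their values were seen. Values of a few listed or marker genes are not reported here.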

Additional observations from a re-analysis of the deposited data

Results flagged for a closer look

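Barcodes above the limit of 3000 genes, which the comparisons leave out, also held both genes. MCTP1 was 3.02 CPM at 4 h and 2.95 CPM at 8 h in these barcodes, above the 1.33 CPM of the library without LPS. OLFM4 was 2.15 CPM at 2 h, 5.79 CPM at 4 h and 3.94 CPM at 8 h in them, against 0.821 CPM without LPS.

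At 2 h the OLFM4 ratio to no LPS was 3.58 (1.46 to 9.57) in monocyte-like cells and 0.623 (0.478 to 0.819) in granulocyte-like cells, so the classes lay on opposite sides of 1. The difference between the classes was not tested, and the monocyte-like ratio rests on 17 and 8 UMIs.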

How the results depend on the processing

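No paired analysis was possible because each treatment had 1 library per assay. Scaling by TMM or by DESeq2 size factors moved no log2 ratio to no LPS beyond its counting interval, with values between 0.57 and 1.38 for MCTP1 and between 0.94 and 1.35 for OLFM4. With a pseudocount of 5 CPM the log2 ratios were 0.95 (4 h) and 1.06 (8 h) for MCTP1 and 0.51, 0.81 and 0.85 (2 h, 4 h, 8 h) for OLFM4. With cells weighted equally they were 1.19 at 8 h for MCTP1 and 0.91 and 0.70 at 4 h and 8 h for OLFM4. MCTP1 at 8 h was 1.2 without the upper limit on genes and 1.19 over every deposited barcode. With the UMI shares that the clusters had without LPS, MCTP1 was 1.08 at 4 h and OLFM4 −0.25, 0.58 and 0.45, a reversal at 2 h. Among genes with at least 20 UMIs, or with no minimum, the 8 h ranks of MCTP1 and OLFM4 were 6 and 8.

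Thinned to 1000 UMIs, MCTP1-positive shares were 0.438%, 0.975%, 1.60% and 1.52% with 1.05, 1.09 and 1.09 UMIs per positive cell at 2 h, 4 h and 8 h, and OLFM4-positive shares 0.328%, 0.721%, 0.887% and 1.05% with 1.5, 1.76 and 1.69 UMIs. Without the clusters of low UMI count, which include the granulocyte-like one, OLFM4 was read in 0.189%, 0.572%, 0.755% and 0.531% of cells, with 1.54 UMIs per positive cell and a log2 ratio of 0.56 at 8 h, and MCTP1 in 7.11% at 8 h. Chosen after the data were seen, leaving out cluster 11 alone gave MCTP1 6.73% at 8 h (log2 ratio 1.57) and OLFM4 a log2 ratio of 1.48, and leaving out cluster 22 gave OLFM4 1.36% at 4 h. With CD3E and LEF1 in place of the T-like class, 5.25%, 5.84%, 11.1% and 11.7% of cells had MCTP1. With CSF3R in place of the granulocyte-like class, OLFM4 was read in 16.9%, 32.3% and 37.7% at no LPS, 2 h and 4 h, and its log2 ratio at 8 h was 1.70. In nuclei with at least 500 counts OLFM4 had 0 CPM without LPS in scATAC-seq. The other 234 values of the levels, shares, UMIs per positive cell, ranks and accessibility moved by less than their counting interval, or for a rank or count by less than 1.5-fold. With 1.5-fold in place of 2-fold, 2 C2-domain, 3 calcium, 11 lymphocyte activation and 2 NF-κB genes were higher at 8 h, and 3 and 2 of the last pair of lists lower. The share of all genes at that limit is not given here, so these counts are not read as a result. Beyond what each setting leaves out or reweights, the cause was not tested.

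Depth limits the OLFM4 values, with 3 to 32 UMIs a library in monocyte-like cells and 50 to 148 positive cells in all. The 8 h library had the fewest cells and the smallest UMI total, where 3 UMIs equal 0.180 CPM, though its median cell was not the shallowest.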

Other observations

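The NF-κB target genes, of which none was at least 2-fold higher at 8 h over all cells, stood differently in granulocyte-like cells. This class held most of the OLFM4 UMIs, though 57 of its 90 cells at 8 h had none. There 9 of 23 measured members were at least 2-fold higher than without LPS, against 8.19% of all genes measured in these cells, and 0 were lower. The prostaglandin synthase PTGS2 had 348 CPM at 8 h against 6.06, CCL20 470 against 12.1, and TNFAIP3, an inhibitor of NF-κB signalling, 1425 against 139. The 89 CCL20 UMIs at 8 h came from 4 of 90 cells, with 44 in 1 cell, while PTGS2 was read in 17 cells and TNFAIP3 in 63. Without LPS PTGS2 and CCL20 had 1 and 2 UMIs, so both passed the limit of 20 UMIs only through the 8 h library. They are among the 9 higher members, and that count is a description only. The chemokine CCL3 had 12331 against 424 CPM in the same cells. OLFM4 itself had 649 against 491 CPM, a ratio of 1.32 (0.991 to 1.77).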
